A study of Mus musculus with 21 samples.

Results

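The genes described here encode proteins that package the DNA of spermatids, together with Prm3, which lies among them: Prm1, Prm2, Prm3, Tnp1, Tnp2, Hils1 and Hmgb4. They were chosen by name, and all 7 listed genes were measured. Every probe set whose platform annotation gave one of these symbols and no other was used, which gave 10 probe sets of the 45101 on the array and 7 of the 18193 genes with a probe set of a single symbol. Prm1 had 3 probe sets, Tnp1 had 2 and each of the other genes had 1.

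Expression was measured on 21 Affymetrix mouse arrays, 3 for each of 7 groups labelled as biological replicates. AH129-5, AH129-N1 and AH129-NC1 are androgenetic haploid embryonic stem (ahES) cell lines of 129 Sv background, cells whose only chromosome set came from a sperm. CS1-1 and R1 are diploid embryonic stem (ES) cell lines of 129 Sv background. MEF are embryonic fibroblasts of CD1 background, and round sperm (129 Sv) were taken fresh from testis. The ahES cells and the round sperm had been sorted by flow cytometry as haploid cells in G0/G1, whereas no sort is stated for the remaining groups. Haploid and diploid lines grew in N2B27 with 2i and LIF, and MEF in DMEM with serum. Each ES group is 1 line, no group carries a named engineered allele or transgene, and the number and age of the animals behind the round sperm are not given in the sources used here. Whether the replicates came from separate cultures or animals is not stated either, so p-values measure the spread between these samples. Except where ahES are compared with diploid ES, they leave out the spread between lines. Strain cannot be told apart from cell type where MEF are compared. Sorting cannot be told apart from ploidy or origin where ahES are compared with diploid ES.

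During spermiogenesis most histones are removed from the DNA and replaced, first by transition proteins and then by protamines, small arginine-rich proteins that compact the sperm nucleus. The genes are transcribed in round spermatids, and many of the mRNAs are held back from translation until the nucleus elongates. Prm1 and Prm2 encode the protamines and Tnp1 and Tnp2 the transition proteins. Prm3 lies in the protamine cluster but encodes an acidic protein of the cytoplasm. Hils1 encodes a linker histone-like protein of spermatids, and Hmgb4 an HMG-box protein of male germ cells.

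On chromosome 16 the RefSeq gene order is Tnp2, Prm3, Prm2 and Prm1 with no other measured gene between them, while Tnp1 lies on chromosome 1, Hils1 on chromosome 11 and Hmgb4 on chromosome 4. The 120 bases before the RefSeq start are shown for the 6 genes that hold at least 1 of the marked letter groups, because these genes were high in the same samples and a reader may wish to see what stands upstream of each (build GRCm38.p6, 5′ to 3′ on the strand of the gene). Capitals mark TGANNTCA, a relaxed form of the cAMP response element, and TATAA or TATATA, forms of the TATA box.
Prm1: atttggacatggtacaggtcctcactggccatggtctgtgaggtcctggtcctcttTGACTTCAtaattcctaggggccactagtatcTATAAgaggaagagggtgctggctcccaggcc
Prm2: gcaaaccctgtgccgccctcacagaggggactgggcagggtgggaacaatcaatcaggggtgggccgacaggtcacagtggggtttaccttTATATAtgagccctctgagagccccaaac
Prm3: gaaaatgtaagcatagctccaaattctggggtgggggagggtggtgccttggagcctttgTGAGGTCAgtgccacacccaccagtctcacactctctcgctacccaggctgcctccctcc
Tnp2: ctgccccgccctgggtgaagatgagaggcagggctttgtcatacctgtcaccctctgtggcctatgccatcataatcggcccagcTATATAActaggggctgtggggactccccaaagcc
Tnp1: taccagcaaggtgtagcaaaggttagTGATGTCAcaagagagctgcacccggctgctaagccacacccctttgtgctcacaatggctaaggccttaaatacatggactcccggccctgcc
Hmgb4: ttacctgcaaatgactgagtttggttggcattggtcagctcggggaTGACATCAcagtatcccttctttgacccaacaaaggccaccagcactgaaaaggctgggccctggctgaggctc

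These stretches are chr16:10796824-10796943 for Prm1, chr16:10792106-10792225 for Prm2, chr16:10790915-10791034 for Prm3, chr16:10788656-10788775 for Tnp2, chr1:73015900-73016019 for Tnp1 and chr4:128260896-128261015 for Hmgb4, all on the minus strand. The full element TGACGTCA, searched on both strands of the 250 bases before the start, was in 0 of the 7 genes and in 1.55% of 32851 RefSeq promoters of the same length. Its core TGACG was in 0 of 7 and in 17.8% of promoters, and TATAAA, searched on the plus strand, was in 0 of 7 and in 7.59%. CCAAT on either strand was in 3 of 7 (Prm3, Hils1 and Hmgb4) and in 33.8% of promoters. The relaxed forms were searched after the sequences had been seen. TGANNTCA on either strand, a pattern that includes TGACGTCA, was in 4 of 7 (Prm1, Prm3, Tnp1 and Hmgb4) and in 11.9% of promoters, and TATAA or TATATA within the last 50 bases of the plus strand was in 3 of 7 (Prm1, Prm2 and Tnp2) and in 5.47%. In Prm1 the former lay 64 to 57 bases and the latter 32 to 28 bases before the start. A match describes letters and not a bound site.

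Values are log2 MAS5 signals, in which the scanner software has subtracted background and scaled each array. Deposited values hold no detection calls, so the 40th percentile of each array, which ran from 4.95 to 5.32 over the 21 arrays, serves as a guide to background. In round sperm, 9 of the 10 probe sets lay between 13.16 and 15.60, and in the other 18 arrays the same probe sets were near background. Of the 180 values outside round sperm, 8 exceeded their array's 40th percentile, 26 were exactly 0, the floor, and the median was 1.80. For all 10 probe sets each round sperm value lay above every value of the other groups. The share of all probe sets that did so was not counted, so this count does not show how unusual the 10 probe sets are. By a different measure, the tests given below, 32.3% to 34.5% of all genes tested were called higher in round sperm. The arrays measure RNA from many cells, so a smaller share of expressing cells and less RNA per cell cannot be told apart.

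**Figure D1:**
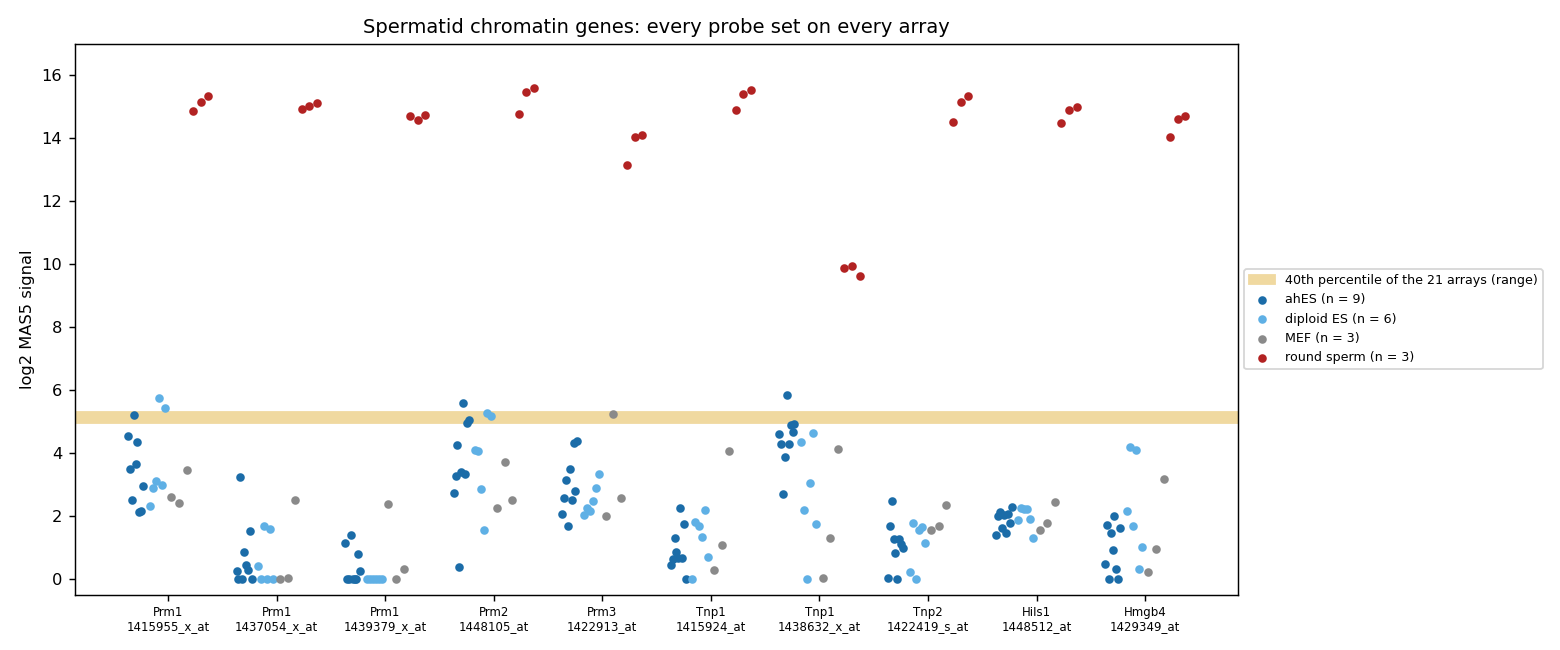
The log2 MAS5 signal (vertical axis) is plotted for each of the 10 probe sets on each of the 21 arrays, with 1 point per array coloured by kind of cell and a band for the range of the arrays' 40th percentiles (4.95 to 5.32). Round sperm points lie at 13.16 or above, except for the second Tnp1 probe set (9.63 to 9.93), and no other point exceeds 5.83.

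Among the protamines, Prm1 (probe set 1415955_x_at) had log2 signals of 14.86, 15.17 and 15.33 in round sperm. In the 9 ahES arrays it ran from 2.12 to 5.20 with a median of 3.50, in the 6 diploid ES arrays from 2.32 to 5.75 with a median of 3.05, and in MEF it was 2.61, 2.41 and 3.45. Round sperm stood apart from the rest, while the ranges of ahES, diploid ES and MEF overlapped. Prm1 in ahES was below the 40th percentile on 8 arrays and above it on 1, and in R1 it was above on 2 of 3. Prm1 was at least 984-fold higher in round sperm than in ahES, 918-fold than in diploid ES and 1054-fold than in MEF, where each lower bound replaces values below the 40th percentile of an array by that percentile. On the scale tested, log2 of the signal plus an offset of 9.73 signal units, the difference from ahES was 10.66 ± 0.32 (SE), with an adjusted p of 3.11e-18 in limma. The other Prm1 probe sets gave the same direction. In round sperm 1437054_x_at had a mean log2 signal of 15.03 ± 0.08 and 1439379_x_at of 14.67 ± 0.10 (SD, n = 3), and no ahES value of either exceeded 3.24. The ending x marks probe sets with probes that can match other sequences.

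Prm2, the second protamine, had log2 signals of 14.77, 15.49 and 15.60 in round sperm. Its 9 ahES values ran from 0.39 to 5.59 (median 3.39), its 6 diploid ES values from 1.56 to 5.28 (median 4.09), and its MEF values were 2.25, 3.70 and 2.51. Within AH129-N1 and R1 single arrays differed by several log2 units, but no other kind reached the round sperm arrays. Prm2 was at least 1088-fold higher in round sperm than in ahES (difference 10.63 ± 0.43, adjusted p in limma 5.97e-16). The bounds were 1138-fold against diploid ES and 1185-fold against MEF.

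Prm3 had log2 signals of 13.16, 14.05 and 14.11 in round sperm, the widest spread of the genes there (SD 0.53, n = 3). Its ahES values ran from 1.67 to 4.39 (median 2.78), its diploid ES values from 2.04 to 3.34 (median 2.36), and its MEF values were 2.01, 5.23 and 2.56. Round sperm again did not overlap any group, and the single MEF value of 5.23 was the only MEF value of any of the 10 probe sets above its array's 40th percentile. Prm3 was at least 392-fold higher in round sperm than in ahES (difference 9.57 ± 0.33, adjusted p in limma 2.80e-17), 403-fold than in diploid ES and 405-fold than in MEF.

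The transition proteins followed the protamines. Tnp2 had log2 signals of 14.51, 15.17 and 15.36 in round sperm, against 0 to 2.47 in ahES (median 1.11), 0 to 1.79 in diploid ES (median 1.34) and 1.57, 1.69 and 2.34 in MEF. All 18 of these lower values lay below the 40th percentile of their array. Tnp2 was at least 925-fold higher in round sperm than in ahES (difference 11.42 ± 0.22, adjusted p in limma 1.34e-21), the largest difference of 14789 genes tested with 1 probe set per gene. With every probe set tested, Tnp1 1415924_at (11.71) and Prm1 1437054_x_at (11.46) had larger ones, and all of these are set against values at background. It was at least 951-fold higher than in diploid ES and 980-fold than in MEF. Its probe set, 1422419_s_at, carries an ending for probes shared between transcripts.

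Tnp1 was read by a pair of probe sets of unlike strength. Probe set 1415924_at had log2 signals of 14.90, 15.40 and 15.54 in round sperm, 0 to 2.26 in ahES (median 0.66), 0 to 2.19 in diploid ES (median 1.51) and 0.28, 1.09 and 4.05 in MEF. It was at least 1111-fold higher in round sperm than in ahES, with a difference of 11.71 ± 0.26 and an adjusted p of 1.32e-20 when limma was run on every probe set. Probe set 1438632_x_at had only 9.88, 9.93 and 9.63 in round sperm, and 2.70 to 5.83 in ahES. Both sets were higher in round sperm without overlap, but the second gave a bound of 23.7-fold against ahES. For each gene 1 probe set was taken, that with the highest mean log2 of signal plus offset over the 21 arrays. This rule selected 1438632_x_at, because that set read higher outside round sperm. The gene-level difference of Tnp1 (4.80 ± 0.38, adjusted p in limma 1.11e-10) is therefore the smallest of the 7 genes.

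Hils1 had log2 signals of 14.49, 14.90 and 14.99 in round sperm. It had the narrowest range elsewhere, with 1.41 to 2.29 in ahES (median 2.01), 1.30 to 2.26 in diploid ES (median 2.06) and 1.54, 1.76 and 2.45 in MEF. All lower values were below the 40th percentile. Hils1 was at least 794-fold higher in round sperm than in ahES (difference 11.05 ± 0.20, adjusted p in limma 4.58e-22), 816-fold than in diploid ES and 841-fold than in MEF.

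Hmgb4 had log2 signals of 14.05, 14.63 and 14.72 in round sperm, against 0 to 1.98 in ahES (median 0.90), 0.31 to 4.18 in diploid ES (median 1.93) and 0.21, 0.94 and 3.18 in MEF. One array each of CS1-1 (4.18) and R1 (4.09) stood above the others of its line, and both values were below the 40th percentile of their array. Hmgb4 was at least 633-fold higher in round sperm than in ahES (difference 10.90 ± 0.30, adjusted p in limma 5.65e-19), 651-fold than in diploid ES and 671-fold than in MEF.

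Read gene by gene, 7 of 7 genes passed in round sperm minus ahES, where passing means at least a 2-fold difference at an adjusted p (Benjamini-Hochberg) under 0.05. Of all 14789 genes tested there, 32.3% were called higher and 40.8% lower. In round sperm minus diploid ES 7 of 7 were higher, beside 32.7% higher and 40.8% lower of all genes, and in round sperm minus MEF 7 of 7, beside 34.5% higher and 41.7% lower. All 7 entered these tests through the round sperm arrays alone, so that the counts describe the genes and are no independent support. The 3 comparisons share the round sperm arrays. Their median differences were 10.66, 10.46 and 11.03, and the medians over all genes were -0.32, -0.33 and -0.31. Centring arrays on their medians moved the all-gene medians to between -0.20 and -0.19, and quantile normalization moved them to between -0.09 and 0.01. Against ahES, with 1 probe set per gene, Tnp2 and Hils1 had the largest and the second largest difference of all genes, Hmgb4 the 5th, Prm1 the 11th, Prm2 the 13th, Prm3 the 71st and Tnp1 the 1253rd. Such places depend on how far each probe set falls at background and are not an order of expression.

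The haploid ES lines were next compared with the diploid ES lines and with MEF, since the series set out to compare the expression patterns of these cells. None of the 7 was above the low-value filter in ahES or diploid ES, which asks for all 3 arrays of at least 1 line above the 40th percentile, so 0 of 7 were tested and 0 called. Over all 12880 genes tested in ahES minus diploid ES, 3.01% were called higher and 1.37% lower. Their array's 40th percentile was exceeded by 3 of 90 ahES values and 4 of 60 diploid ES values. With no filter, differences in limma ran from -0.44 ± 0.43 (Hmgb4) to 0.84 ± 0.59 (Tnp1), 0 of 7 were called and 0 of 7 had an unadjusted p under 0.05. Signals this close to background do not show that the lines are alike. In ahES minus MEF, where 21.2% of 13224 genes were called higher and 21.1% lower, again 0 of 7 were tested. With no filter 1 of 7 was called, Tnp1 through its weaker probe set (1.09 ± 0.39, adjusted p in limma 0.0196), and 1 of 7 had an unadjusted p under 0.05. The stronger Tnp1 probe set had group means of 0.95 ± 0.70 in ahES (SD, n = 9) and 1.81 ± 1.99 in MEF (SD, n = 3). Below round sperm, the ranges of groups next to each other in the order of means overlapped in all 50 such pairs over the 10 probe sets, which their being neighbours favours. Over all 150 pairs of the 6 groups, 13 had ranges apart, in 5 probe sets. Prm1 (1415955_x_at) was higher in AH129-N1 (3.66 to 5.20) than in AH129-NC1 (2.12 to 2.96), CS1-1 and MEF, and higher in R1 than in AH129-NC1. Tnp1 by its weaker probe set was higher in AH129-NC1 (4.65 to 4.91) than in AH129-5, CS1-1, R1 (1.75 to 4.62) and MEF. Prm3 was lower in CS1-1 (2.04 to 2.24) than in AH129-NC1 (2.78 to 4.39) and R1, Tnp2 was higher in MEF than in AH129-N1 and AH129-NC1, and Hmgb4 was higher in CS1-1 than in AH129-NC1. These separations carry no test, and nearly all of the values lie below the 40th percentile. The share of such pairs over all genes was not counted, so they are no result about the lines.

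The 3 round sperm arrays were not equal for these genes. Replicate 1 was the lowest in 8 of the 10 probe sets, the exceptions being 1439379_x_at for Prm1 and 1438632_x_at for Tnp1. Replicate 1 lay below the mean of replicates 2 and 3 by 0.92 log2 units for Prm3, 0.77 for Prm2, 0.75 for Tnp2, 0.62 for Hmgb4, 0.57 for Tnp1 (1415924_at), 0.46 for Hils1 and 0.39 for Prm1 by 1415955_x_at. For the other Prm1 probe sets the difference was -0.12 (1437054_x_at) and 0.04 (1439379_x_at). The median over the 7 genes was -0.62, and 6 of 7 were lowest in replicate 1. Of the 12 markers of round and elongating spermatids 10 were lowest there, with a median of -0.40. Of all 11601 genes above the 40th percentile on these arrays 32.2% were lowest in replicate 1, and the median was 0.08. The 10 spermatocyte markers had a median of 0.15, with 4 of 10 lowest. The Actb 3' minus 5' difference, a sign of RNA degradation, was 1.00, 0.71 and 0.50 in replicates 1 to 3, against 0.28 to 0.63 on the other arrays, and for Gapdh it was 0.70, 0.59 and 0.37 against -0.35 to -0.09. The part of RNA quality or of cell makeup in this pattern was not tested. Without replicate 1, 7 of 7 genes still passed in each round sperm comparison, and the difference of Tnp2 from ahES became 11.67.

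**Figure D2:**
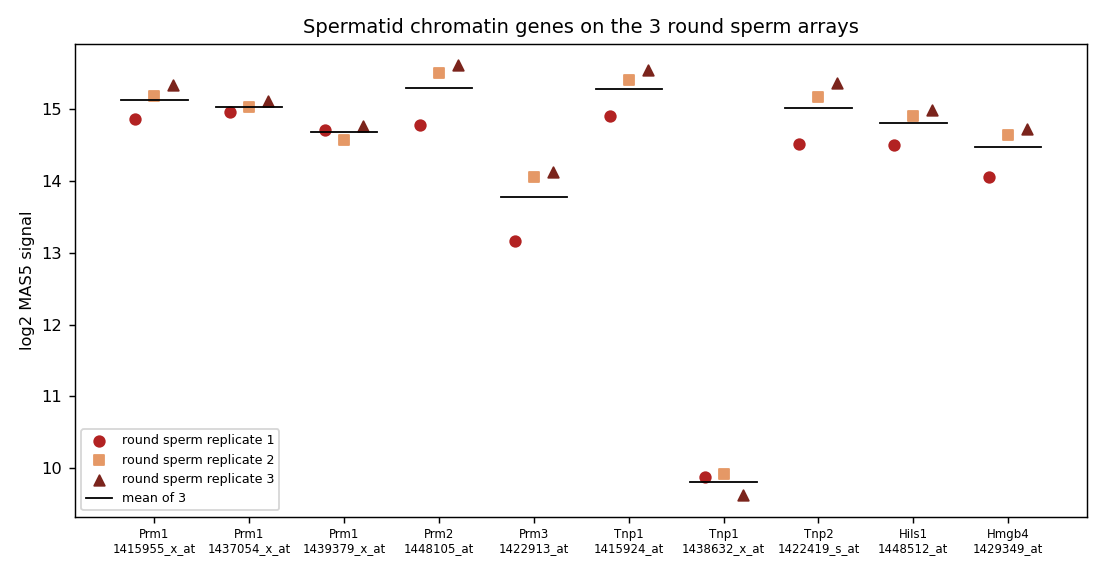
The log2 MAS5 signal (vertical axis) of the 10 probe sets is plotted on the 3 round sperm arrays, with a symbol for each replicate and a line at the mean of 3. Replicate 1 is the lowest point in 8 of the 10 probe sets.

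The label round sperm was checked against markers of the cells a testis holds. All 12 spermatid markers were above the 40th percentile on the 3 round sperm arrays, with summed signals of 147442 to 202600 against 161 to 392 on the other arrays. Tssk2, a kinase of spermatids, rose by 10.27 ± 0.29, and Acrv1, an acrosomal protein, by 9.18 ± 0.29. All 10 spermatocyte markers were also above that level, with sums of 17777 to 19149 against 1185 to 2082 in ES arrays and 63 to 114 in MEF. Of 9 spermatogonial markers 8 or 9 were above it, with sums of 10060 to 15116 against 4514 to 7940 in ES arrays and 1304 to 1524 in MEF. Of 9 Sertoli cell markers 5 to 7 were above it (sums of 582 to 658). So were 1 to 3 of 4 Leydig cell markers (198 to 289) and 4 or 5 of 6 macrophage and peritubular markers (997 to 1091). Most probe sets of an array exceed this level by definition, so these counts alone do not show such cells. Sertoli cell markers summed to 4848 to 13917 in ES arrays and 11495 to 12276 in MEF. Leydig cell markers summed to 146 to 391 in ES arrays and 85 to 169 in MEF. Macrophage and peritubular markers summed to 1099 to 3699 in ES arrays and 37007 to 42635 in MEF. ES cell markers summed to 1118 to 1250, against 89470 to 110716 in ES arrays. Fibroblast markers summed to 1143 to 1514, against 145614 to 147570 in MEF. Whether other cells were present, and what they would add to the values of the 7 genes, was not tested.

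Genes of other chromatin proteins did not all move with the protamines. Of 13 testis histones, histone variants and HMG relatives 7 were measured, and in round sperm minus ahES 2 were higher, 4 lower and 1 did not pass, beside 32.3% higher and 40.8% lower of all genes, with a median of -1.64 against -0.32 for all genes. The counts were the same against diploid ES (median -2.28) and MEF (median -1.49). With only 7 genes, such counts are no result about the list. H2bc1, H2ac1, H3f4, H2ab1, H1f0 and Hmgb1 were not measured, so the counts leave out several of the listed histones. H1f7, a linker histone of spermatids, rose from 4.87 ± 0.55 in ahES (SD, n = 9) to 12.82 ± 0.67 in round sperm (SD, n = 3) on the offset log2 scale, a difference of 7.95 ± 0.41 (adjusted p in limma 3.61e-14). H1f6, the testis linker histone H1t that is made in spermatocytes, rose by 2.03 ± 0.38. The genes that fell are not specific to germ cells. Hmgb2, a chromatin protein of dividing and germ cells, fell by 4.74 ± 0.12, Hmgb3 fell by 6.12 ± 0.35, H2ax, a histone variant phosphorylated at DNA breaks, fell by 2.55 ± 0.08 and H3f3b, a gene for histone H3.3, fell by 1.64 ± 0.17. In ahES minus diploid ES 1 of 6 tested was higher, Hmgb3 by 1.54 ± 0.12 (adjusted p in limma 1.53e-08), and 0 were lower. Of all genes 3.01% were higher there and 1.37% lower. The gene not tested there entered the comparisons of round sperm with ahES and diploid ES through round sperm alone. In ahES minus MEF 3 of 6 were higher (Hmgb2 by 2.47, H2ax by 1.05, and Hmgb3), beside 21.2% of all genes.

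Enzymes and readers that act while histones are removed were measured for 15 of 16 listed genes. Against ahES, 6 were higher, 6 lower and 3 did not pass (median -0.70), which is near the all-gene shares of 32.3% higher and 40.8% lower and is no result about the list. Against diploid ES 6 were higher and 7 lower (median -0.72), or 6 lower without round sperm replicate 1. Against MEF 7 were higher and 3 lower (median 0.68). Kat8, a histone H4 acetyltransferase, rose by 3.05 ± 0.08 against ahES. Brdt, the testis bromodomain protein that binds acetylated histones, and Chd5, a chromatin remodeller of spermatids, rose by 5.61 ± 0.29 and 3.69 ± 0.25, and this pair is named because of its known role after the values were seen. Top2b, a topoisomerase, fell by 4.07 ± 0.10, and Rnf8, a ubiquitin ligase for histones, fell by 3.06 ± 0.07. Cdyl, a chromodomain protein, fell by 5.49 ± 0.11 in the probe set chosen, but its 3 probe sets disagreed: 2 were lower and 1 was higher, by 4.70. In ahES minus diploid ES 0 of 15 were called in limma, although 5 had an unadjusted p under 0.05 and 3, Psme4, Top2b and Cdyl, an adjusted p under 0.05, with differences of 0.44, 0.75 and 0.44 that are below 2-fold.

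Genes that control transcription, storage and translation of protamine mRNA were mostly higher in round sperm. Of 16 genes 12 were higher, 2 lower and 2 did not pass against ahES, diploid ES and MEF alike, with medians of 3.94, 3.91 and 4.58. Over all genes 32.3% to 34.5% were higher and 40.8% to 41.7% lower, with medians of -0.32, -0.33 and -0.31. Only 13 of the 16 passed the low-value filter in an ES line, and 12 in ahES or MEF. The remaining genes entered through the round sperm arrays alone, which favours a higher call, so the counts are no independent support. Tarbp2, an RNA-binding protein needed for translation of protamine mRNA, rose by 2.20 ± 0.06 against ahES. Fhl5, a coactivator of the factor CREM, rose by 9.80 ± 0.31 against diploid ES, and Rfx2, a transcription factor of spermatids, rose by 8.13 ± 0.15 against MEF. Tbpl1, a TBP-related factor needed for spermatid maturation, rose by 4.17 ± 0.09 against ahES in the probe set chosen, while its other probe set fell by 3.32. The genes that did not pass were Crem, the activator of many spermatid genes, and Ptbp2, named here after their values were seen. Of the 2 probe sets of Ptbp2, 1 was higher against ahES, by 1.68, and 1 did not pass (-0.06). Crem had a difference of 0.43 ± 0.15 against diploid ES in the probe set chosen, but of its 4 probe sets 2 were higher, up to 8.35, 1 was lower and 1 did not pass.

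The 2 genes called lower were Celf1, an RNA-binding protein, and Srpk1, a kinase that phosphorylates protamine. Celf1 fell by 5.79 ± 0.05 against ahES, and 4 of its 5 probe sets were lower. Srpk1 fell by 2.76 ± 0.07 in the probe set chosen, and its other probe set rose by 2.72. Where a gene counts only if each of its tested probe sets passed in the same direction, 10 of the 16 were higher against ahES and against diploid ES and 11 against MEF, and 0 were lower in all 3 comparisons. The fifth Celf1 probe set also lay below 0 against ahES, at -0.74, but under 2-fold. In ahES minus diploid ES, where 3.01% of all genes were higher, 1 of 13 was. It was Taf7l, a germ cell relative of a TFIID subunit (2.10 ± 0.35, adjusted p in limma 2.99e-04). In ahES minus MEF, where 21.2% of all genes were higher, 4 of 12 were: Rfx2 by 4.41, Taf7l by 3.14, Papolb by 2.38 and Piwil1 by 1.55.

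**Figure D3:**
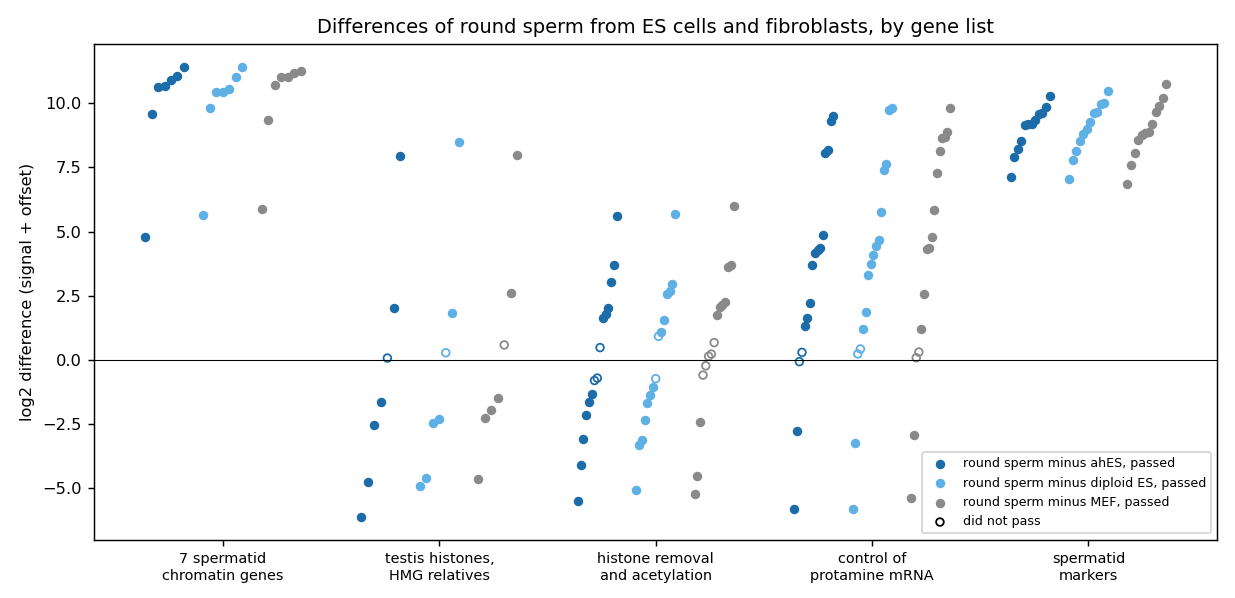
The log2 difference of round sperm from ahES, diploid ES and MEF (vertical axis, signal plus offset) is plotted for each tested gene of 5 lists, 1 point per gene, filled where the gene passed. The 7 spermatid chromatin genes lie between 4.80 and 11.43 and the 12 spermatid markers at 6.86 or above, while the histone lists hold points on both sides of 0.

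The measured genes next to the protamine cluster had smaller differences or fell. On 1 side, Socs1, a suppressor of cytokine signalling, differed from ahES by 0.68 ± 0.21 and did not pass, and Clec16a rose by 1.52 ± 0.11. On the other side Rmi2, a genome stability protein, differed by 0.08 ± 0.46 (adjusted p in limma 0.873) and Litaf fell by 4.36 ± 0.07. The mean log2 signals of Rmi2 were 5.09 to 5.62 over the kinds of cell, near background, so they do not show that Rmi2 is unchanged. Near Tnp1, Igfbp5 and Igfbp2, binding proteins for insulin-like growth factors, both fell, and Igfbp2 fell by 6.97 ± 0.14. Tns1 differed by 1.00 ± 0.10 (adjusted p in limma 2.86e-09), which is just under 2-fold, so it did not pass. It rose by 1.58 ± 0.10 against diploid ES and passed, and against MEF it differed by -0.68 ± 0.12 and did not pass. Cxcr2, on the same side, did not pass the filter. Beside Hils1, Sgca, a muscle sarcoglycan whose RefSeq span overlaps that of Hils1, rose by 4.32 ± 0.43, and Col1a1, a collagen chain, fell by 2.99 ± 0.14. On its other side Pdk2, a kinase of pyruvate dehydrogenase, rose by 5.42 ± 0.43 and Samd14 by 1.04 ± 0.24. Whether RNA of one of this overlapping pair adds to the signal of the other was not tested. Beside Hmgb4, Gjb5, a connexin, fell by 4.91 ± 0.28, while Zscan20 rose by 1.37 ± 0.24 and Tlr12, a receptor of innate immunity, by 1.66 ± 0.37. Csmd2, whose span overlaps Hmgb4, did not pass the filter.

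**Figure D4:**
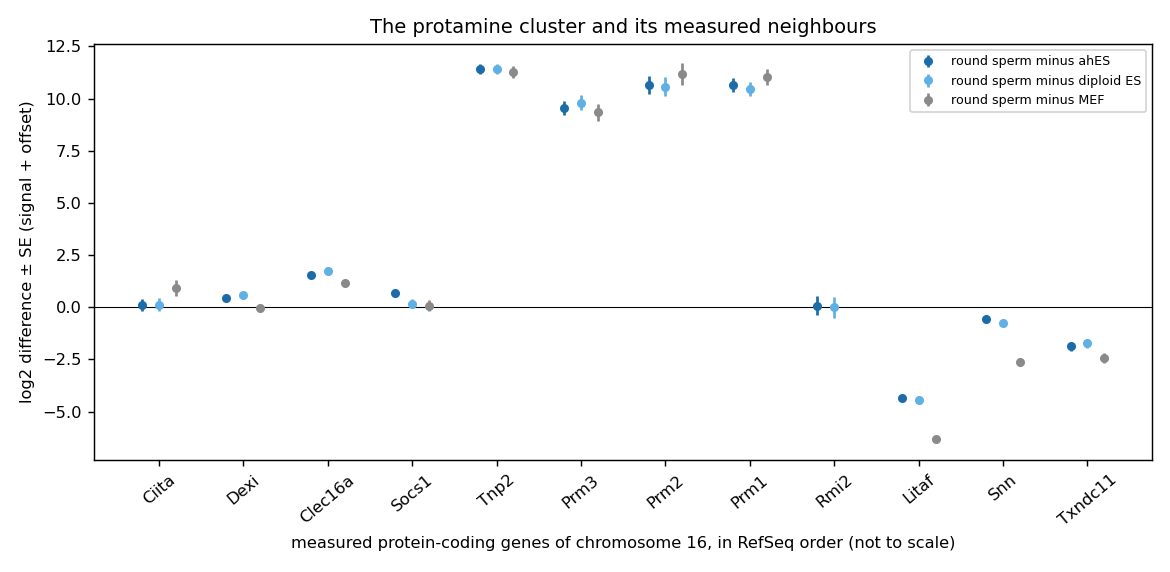
The log2 difference ± SE (vertical axis, signal plus offset) of round sperm from ahES, diploid ES and MEF is plotted for 12 measured protein-coding genes of chromosome 16 in RefSeq order, not to scale. Tnp2, Prm3, Prm2 and Prm1 lie between 9.34 and 11.43, and the genes on both sides lie between -6.31 and 1.76, with no point for Rmi2 against MEF.

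Over the 21 arrays, genes with the pattern most like each member were found by Pearson's r among 15402 genes above background in at least 1 group. The arrays fall into round sperm and the rest, so r mostly measures how alike that step is, and it is given as a description. Tnp2 and Hils1 were each other's nearest (r = 0.9995), followed for Tnp2 by 4933402J07Rik (0.9989) and Cypt12 (0.9988) and for Hils1 by 4933402J07Rik (0.9993) and Pom121l2 (0.9991). Hmgb4 was nearest to Hils1 (0.9958), Ppp1r14bl and Prss52 (both 0.9954). The genes nearest to Prm1 were Lkaaear1 (0.9941), Gm5617 (0.9918) and Cdkn3 (0.9915). For Prm2 these were Bpifb2 (0.993), 1700093K21Rik (0.9921) and 1700011L22Rik (0.9897), and for Prm3 Hspb9 (0.9927), Tmem210 (0.9925) and Cypt12 (0.9922). Tnp1 by its weaker probe set was nearest to Arfgef2 (0.9708), Ttll3 (0.9665) and 1700022A21Rik (0.9652), and by its stronger one to Tnp2 and Hils1 (both 0.9982) and 4931403G20Rik (0.9978). Among the 7 genes, with Tnp1 by its weaker probe set, the 21 pairs ran from 0.9198 to 0.9995. The number of genes at r of 0.99 or above ran from 0 for Tnp1 by its weaker probe set and 2 for Prm2 to 172 for Tnp2 and 181 for Hils1. No such count was made for the stronger Tnp1 probe set, whose nearest genes, given above, exceeded 0.99. The count for Tnp1 thus depends on the probe set, and what sets the other counts was not tested.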

How the data were processed

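Arrays of 21 samples in 7 groups were used as deposited. The deposited values are log2 signals, made by the authors with MAS5 per the submitters' processing notes (no version given); the base was taken from the values, whose 2% trimmed mean of signals is 500 on each array. Of 45101 probe sets, 64 array controls were left out and 34945 had 1 gene symbol in the platform annotation (18193 genes); a gene was represented by its probe set of highest mean signal. An offset of 9.73 signal units (the median 20th percentile) was added, log2 taken, and limma 3.58.1 (R 4.3.3, statmod 1.5.0; trend, robust) run over the groups. For ahES minus diploid ES the cell line was a random block (consensus correlation 0.687). In the other comparisons each group had its own mean, so SE and p-values hold the spread between arrays within groups and not that between lines. Tests are 2-sided, and the number of arrays limits precision. The workflow was tested on simulated data. Promoters are RefSeq's (GRCm38.p6); a planned description of protein composition was not made here. Named genes are the 7 members; of each list up to 4 called genes with the smallest adjusted p and any 5 or fewer of a direction; the 3 most like genes; and near neighbours. Members and lists were chosen with earlier results of these data known. Alternatives tried were scaling, offset, probe set rule, filter, moderation, line block, replicate block and leaving out each array and line. H2bc1, H2ac1, H3f4, H2ab1, H1f0 and Hmgb1 were not analysed here.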

Additional observations from a re-analysis of the deposited data

Results flagged for a closer look

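Of 20 sets of values in groups of 4 to 10 arrays that were searched for a value far from the others, 1 had one, and chance gives about 1 in 20. It was Prm1 (probe set 1437054_x_at) in replicate 3 of AH129-5, at a log2 signal of 3.24, the highest of the 9 ahES arrays. The value lies below the 40th percentile of its array, and the other Prm1 probe sets had 2.52 and 0 on the same array.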

How the results depend on the processing

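In round sperm minus ahES, minus diploid ES and minus MEF, 7 of 7 genes passed under every alternative run (25, 21 and 16 settings), with no reversal, and leaving out each array in turn kept 7 to 7. Differences from ahES were lowest with an offset of 32 (4.06 for Tnp1, 8.41 for Prm3, 9.37 to 9.91 for the others) and highest with no offset (10.78 to 13.95), or for Tnp1 with the mean over probe sets (8.26). In ahES minus MEF, 0 genes were called except with no filter, where 1 was (Tnp1). In ahES minus diploid ES 0 were called throughout, while over all genes 564 were called, 967 without the line block and 282 with 1 mean per line; without replicate 1 or 2 of R1, 1 gene each (Prm2, Prm1) was tested and not called. With the replicate block 7, 7, 7, 0 and 0 genes were called, and 524 in place of 564 of all genes for ahES minus diploid ES. Deviations of arrays with the same number had a mean correlation of -0.013 over 63 pairs. For arrays with different numbers it was 0.0065 over 126 pairs. No pairing by number was thus seen on average, and a mean over all groups cannot exclude pairing between some of them. Of the lists, the lower count for protamine mRNA control fell from 2 to 1 with the mean over probe sets. Where each tested probe set of a gene had to pass, the histone removal counts moved too. Against diploid ES they were 5 higher and 4 lower, in place of 6 and 7. Against ahES they were 5 and 4 in place of 6 and 6, and against MEF 5 and 2 in place of 7 and 3. Near background, small differences are beyond what these signals can show, and round sperm values lie within 2.31 log2 units of the array maximum (weak Tnp1 set aside), where compression was not tested.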
